A study of Mus musculus with 8 samples.

Results

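Of the 55681 probes on the array that are not controls, 4226 carried an Ensembl mouse transcript identifier (a name that starts with ENSMUST) as their systematic name. They named 4082 transcripts, since 129 transcripts had more than 1 probe. These probes were chosen by name only, and 2175 of them (51.5%) were well above background on 4 or more of the 8 arrays and were retained. Well above background is a flag that the scanner software sets when the signal of a spot clears its local background. The study compared the hearts of mice with myocardial infarction (MI) and of sham-operated mice to find long non-coding RNAs (lncRNAs) that respond to MI. All 8 animals were adult male mice of the C57BL\6 background. In the 4 MI mice, the anterior interventricular artery was permanently ligated, and the 4 sham mice went through the same operation without the ligation. Ventricles were taken 24 hours later, and total RNA of each mouse was labelled with 1 dye (Cy3) and hybridised on 1 array. Both groups had anaesthesia, thoracotomy and coronary exposure in common, and whole ventricles mix infarcted with surviving myocardium and with the blood cells they hold.

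Ensembl and RefSeq are catalogues of transcripts that are drawn up separately. An Ensembl name can stand for a messenger RNA, a splice form, a pseudogene or an lncRNA, and the make-up of the Ensembl-named probes on this array was not determined. An lncRNA is a long RNA without a known protein product, and many lncRNAs are present in few copies per cell and in few cell types. After coronary occlusion, cardiomyocytes die, and neutrophils followed by monocytes enter the ventricle within the first days.

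The files pair none of the Ensembl names with a gene. Gene names from the study are used for ENSMUST00000100512 (Mirt2, also Gm10872), ENSMUST00000099574 (Gm10791) and ENSMUST00000161216 (2310075C17Rik), which are lncRNAs. The study lists these lncRNAs because they differed between MI and sham mice on these same arrays. Their differences here were therefore part of their selection. Other transcripts are given by their identifier where single values matter, and otherwise in counts. The PCR primers that the study gives for Mirt2 and 2310075C17Rik are shown. Whether they and the array probes read the same RNA was not tested.
Mirt2 forward primer: tcaacactttccataggt
Mirt2 reverse primer: attgtgaggtccagatag
2310075C17Rik forward primer: acaacaacagattagatc
2310075C17Rik reverse primer: aggacattatagcactta

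The stretches around the transcription starts of Gm10791 and 2310075C17Rik are shown because the former rose and the latter fell, and they place both genes. They come from RefSeq on build GRCm38.p6 and run from 250 bases before the start to 50 bases after it, 5′ to 3′ on the plus strand of both genes. No start region of Mirt2 is shown. Capitals mark the matches to the motifs searched on both strands.
Gm10791, chr16:84971961-84972260, plus strand: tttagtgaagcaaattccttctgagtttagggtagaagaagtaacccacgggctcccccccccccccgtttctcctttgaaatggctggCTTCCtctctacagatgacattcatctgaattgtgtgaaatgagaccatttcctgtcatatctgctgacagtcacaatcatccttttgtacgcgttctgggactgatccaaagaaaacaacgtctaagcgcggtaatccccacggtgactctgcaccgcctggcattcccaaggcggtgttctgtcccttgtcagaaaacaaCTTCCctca
2310075C17Rik, chr9:112227206-112227505, plus strand: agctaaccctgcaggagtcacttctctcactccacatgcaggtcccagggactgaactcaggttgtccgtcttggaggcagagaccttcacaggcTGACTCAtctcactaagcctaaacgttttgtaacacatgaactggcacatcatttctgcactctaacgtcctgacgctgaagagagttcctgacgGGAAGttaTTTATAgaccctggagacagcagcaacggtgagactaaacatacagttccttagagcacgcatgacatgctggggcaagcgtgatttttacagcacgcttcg

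The search covered the letters of the TATA box (TATAAA), the motif of the factor AP-1 (TGACTCA), the cyclic AMP response element (TGACGTCA), the E-box (CACGTG), the box bound by Sp1-type factors (GGGCGG), the box bound by the factor NF-Y (CCAAT) and the core of the ETS family motif (GGAAG), and the matches found did not overlap. Upstream of 2310075C17Rik, TGACTCA lay at -155 to -149 from the start, GGAAG at -60 to -56 and TATAAA, on the minus strand, at -52 to -47. At Gm10791, GGAAG was found on the minus strand at -161 to -157 and at 41 to 45. Among all 27025 RefSeq start regions of this length, TATAAA was present in 14.2%, TGACTCA in 5.17% and GGAAG in 71.1%. The other motifs, absent from both windows, were present in 1.88% (TGACGTCA), 7.24% (CACGTG), 35.9% (GGGCGG) and 37.9% (CCAAT). These matches describe letters and were not tested as binding sites.

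All arrays shared 1 slide, whose 2 rows each held 2 MI and 2 sham mice. Array pairs correlated at 0.990 to 0.995 within the MI group and 0.990 to 0.992 within the sham group. Heart tissue was recognisable in both groups by its cardiomyocyte markers. All 8 markers were retained, and their summed linear signal was 1921800 to 2869040 in MI and 2040740 to 2714390 in sham mice. Neutrophil markers differed: 8 of the 9 retained ones were called higher in MI by the rule below, with a summed signal of 208795 to 320642 against 62014 to 81304, while Ly6g was not retained. Of the monocyte and macrophage markers, 2 of 8 were called higher, with a summed signal of 17170 to 24827 against 13303 to 20529. None of the 4 retained B cell markers was called, though their summed signal, 262 to 344 in MI and 154 to 221 in sham mice, did not overlap. No marker was called among 4 of T cells (4976 to 9016 against 4717 to 9945), 6 of fibroblasts (45728 to 114342 against 88183 to 142524) and 5 of endothelial cells (17606 to 24636 against 20053 to 26349). All 6 fibroblast markers had a lower mean in MI, with a median log2 fold change of -0.50, though their summed signals overlapped. Called higher were 1 of the 8 cardiomyocyte markers and 1 of 4 smooth muscle markers (24511 to 44292 against 16160 to 21574). Markers were read only from probes paired with a gene through a RefSeq name. Cd68, Ly6c2, Cd3g, Cd8a and Pax5 had no such retained probe and are not in these sums. The study reports Cd68 as higher in MI on these arrays. The number of arrays, rather than a read depth, limits the precision of every value.

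The Ensembl-named probes were detected less often than the messenger RNA probes. On all 8 arrays, 1822 of them (43.1%) were well above background, and on none 1541 (36.5%), against 68.3% and 18.7% of the 26392 probes with a RefSeq messenger RNA name. After the filter, 51.5% of the Ensembl-named probes remained, compared with 74.3% of messenger RNA probes, 55.8% of the 771 RefSeq non-coding probes, 50.4% of the 2246 cDNA clone probes (names starting with AK) and 46.1% of the 16194 probes named by a genomic interval. No test was made of these shares, since the classes differ in how their sequences were chosen.

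The share of Ensembl-named probes detected was 52.9%, 50.7%, 56.9% and 52.0% in MI mice 1 to 4 and 55.6%, 47.5%, 48.2% and 48.2% in sham mice 1 to 4. The MI mice were above sham mice 2 to 4, but sham mouse 1 was above 3 of the MI mice, so that the groups overlapped. Sham mouse 1 stood apart in the same way for messenger RNA probes, with 76.9% detected against 71.7% to 72.1% in the other sham mice. Which transcripts make up the higher share in this mouse, and why, was not tested. Results on single transcripts are therefore also given without it where it changes them.

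**Figure D1:**
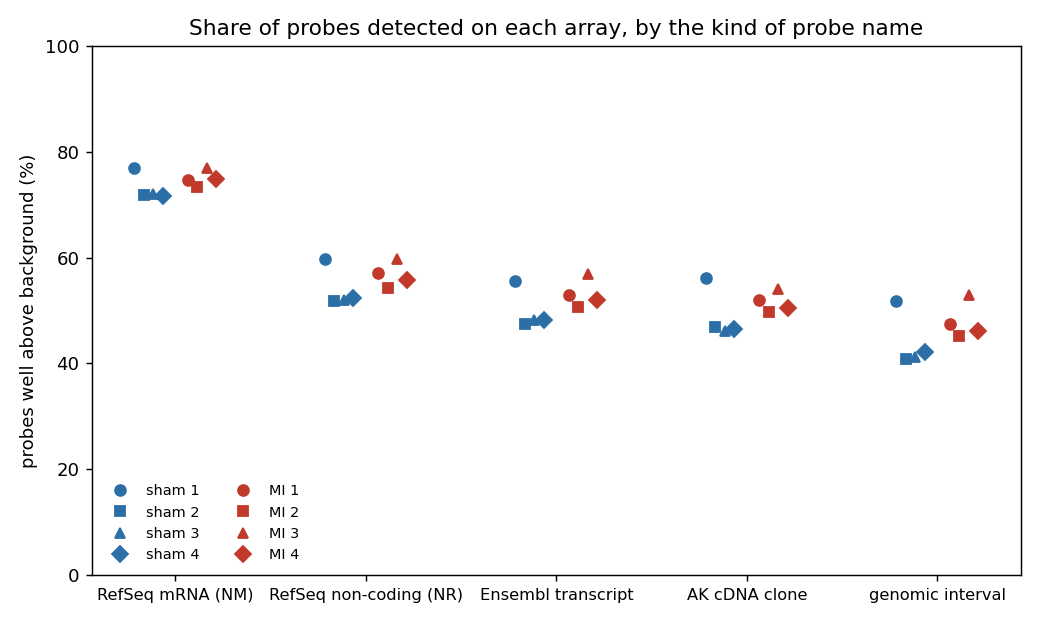
Share of probes well above background (vertical axis, %) on each of the 8 arrays, for 5 kinds of probe name (horizontal axis); each symbol is 1 mouse, blue for sham and red for MI. Ensembl-named probes lie at 47.5% to 56.9%, below the messenger RNA probes, and sham mouse 1 lies above the other sham mice in all 5 classes.

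Retained Ensembl-named probes had lower signals than messenger RNA probes. The median log2 level of the former, the mean over the 8 mice of the log2 normalized signal, was 6.66. It was 8.74 for messenger RNA probes, 7.20 for RefSeq non-coding probes and 7.70 for all retained probes. Below the Ensembl-named probes were the cDNA clone probes, with 6.40, and the genomic interval probes, with 6.02. In units of the scanner's processed signal, the medians were 87.8 for Ensembl-named and 414 for messenger RNA probes. The levels spread widely, from 4.94 at the 10th percentile to 12.87 at the 90th. Of the 2175 probes, 816 had a level below 6, 627 between 6 and 8, 287 between 8 and 10, and 445 at 10 or above. Probes of the same transcript name differed in level, for reasons that were not tested. Among the 55 transcripts with more than 1 retained probe, the brightest and the dimmest probe differed by a median of 1.18 and by up to 9.80 on the log2 scale. The spread between mice of a group was small and like that of messenger RNA probes, with a median SD of 0.29 against 0.31.

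The 8 brightest Ensembl-named probes had levels of 17.93 to 19.12, and none was saturated on any array. Their log2 fold changes of MI over sham lay between -0.05 and 0.16, and none passed the test (limma, lowest adjusted p = 0.741). At the other end of the range, 70 probes were retained with exactly 4 arrays well above background and had a median level of 4.67, whereas 89 missed the filter with 3 arrays and had a median level of 4.58. The filter thus lies close to the noise floor, where the lowest signal well above background on an array was between 4.17 and 4.84.

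MI and sham mice were compared with limma over all 34038 retained probes of the array, and a probe was called when it differed by more than 2-fold with an adjusted p below 0.05. Among the Ensembl-named probes, 45 (2.07%), from 41 transcripts, were called higher in MI, and 7 (0.322%), each from a transcript of its own, were called lower. Over all retained probes, 3.07% were called higher and 0.405% lower, so that the shares of Ensembl-named probes lay below those of the whole array, a difference that was not tested. Under the 21 alternatives, the share called higher was below that of the whole array in 21 and the share called lower in 19. All alternatives start from the same arrays, so these tallies show dependence on the processing and are not repeated evidence. With only 7 probes called lower, 0.322% cannot be told apart from the 0.405% of the whole array. The lower calls are few, and 1 mouse could change them: they were 14 without MI mouse 1, 3 without MI mouse 2, 14 without MI mouse 4 and 12 without sham mouse 2. Messenger RNA probes were called higher in 3.98% and lower in 0.433% of cases, and RefSeq non-coding probes in 4.19% and 0.93%. Genomic interval probes were called higher in 1.61% and lower in 0.362%, and cDNA clone probes in 1.59% and 0.707%. A share of higher calls below that of the whole array was thus not particular to Ensembl-named probes. In ventricular RNA, a lower value from fewer cells of a type and one from less RNA per cell cannot be told apart, nor can their opposites. Without sham mouse 1, the calls were 58 higher and 6 lower, of which 44 and 6 were among those made with all mice.

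Without the fold limit, 94 Ensembl-named probes (4.32%) had an adjusted p below 0.05 and a higher mean in MI, and 23 (1.06%) a lower one, against 6.30% and 1.31% of all retained probes. Every MI mouse was above every sham mouse for 146 Ensembl-named probes (6.71%; all probes 8.46%) and below for 52 (2.39%; all probes 2.70%). The median log2 fold change was 0.13 over the Ensembl-named probes and 0.12 over all retained probes, and 69.0% of the former were positive against 64.9%. That general offset depended on the scaling. With a plain shift by the spike-in signals, the median over all probes was 0.11, and calls among Ensembl-named probes were 62 higher and 14 lower. With each array scaled to its 75th percentile, the median was -0.02, and calls became 50 higher and 25 lower. Scaling to a common percentile takes out a shift that most probes share, so its result says nothing on where the offset came from. Quantile normalization gave 43 higher and 26 lower, and a spike-in fit of the authors' model made here gave 10 higher and 0 lower (limma, 227 probes at an unadjusted p below 0.05 in either direction, 374 in the main values). Higher calls were thus 86.5% of the calls in the main values and 81.6% with the plain spike-in shift. They were 66.7% with 75th percentile scaling, 62.3% with quantile normalization and 100% with the spike-in fit.

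**Figure D2:**
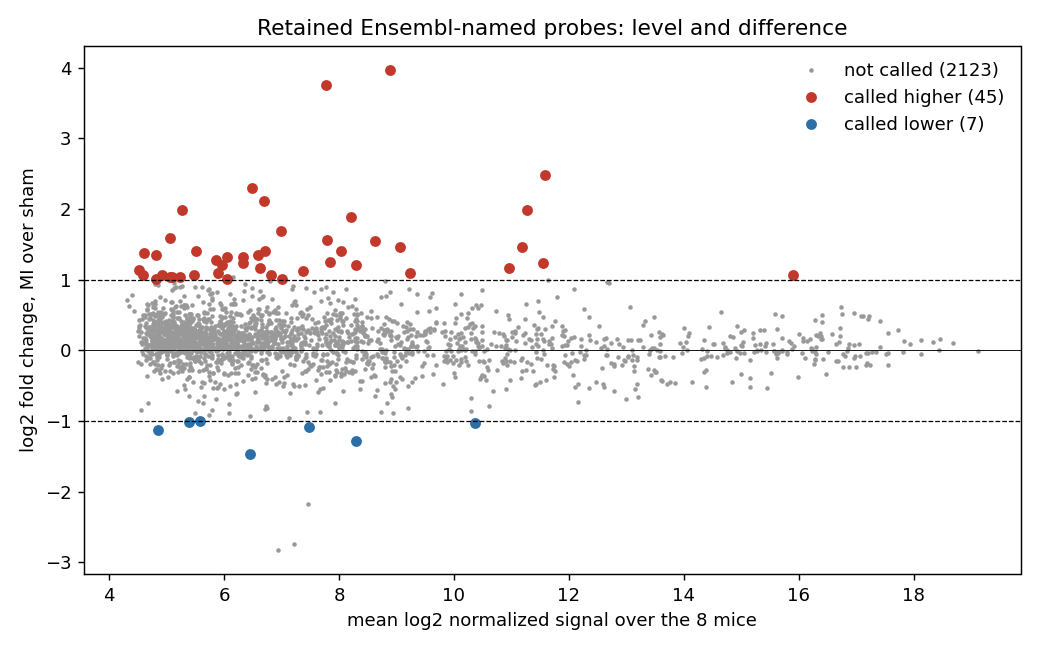
Log2 fold change of MI over sham (vertical axis) against the mean log2 normalized signal over the 8 mice (horizontal axis) for the 2175 retained Ensembl-named probes; each point is 1 probe, and dashed lines mark 2-fold. The 45 probes called higher are red and the 7 called lower are blue. The 3 grey points below -2 are probes that were bright on a single sham array.

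Of the 45 probes called higher, 32 were well above background on all 8 arrays, 9 on only some sham arrays and 4 on no sham array. Among the 41 detected in at least 1 sham mouse, 31 rose between 2- and 3-fold and 5 by more than 4-fold, with a median of 2.41-fold (log2 fold change 1.27). The other 4 have only bounds, given below, which are under 2-fold, so that their calls rest on values below the detection floor. The folds of the 9 detected on only some sham arrays also rest in part on sham values that were not well above background. Their sizes are therefore uncertain too. The sham means of the 45 ran from 3.92 to 15.37, and 24 had a sham mean below 6. For 41 of the 45, the lowest MI mouse was above the highest sham mouse. These probes were already called for their difference, and no matching count was made over all called probes. The 41 are therefore not a result about Ensembl-named probes. The highest MI value was that of MI mouse 3 in 24 of the 45, and the highest sham value that of sham mouse 1 in 25. These 2 mice also had the highest median over all retained Ensembl-named probes in their group, 6.98 and 6.74. Of the 45, 31 stayed called whichever mouse was left out. All 7 probes called lower changed by less than 3-fold, with a median of 2.12-fold, and 2 of them stayed called whichever mouse was left out.

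The share called higher was below that of messenger RNA probes at each level. No other class was compared by level. Among probes with a level below 6, 1.96% of Ensembl-named and 4.01% of messenger RNA probes were called higher. Between 6 and 8, the shares were 2.55% and 5.52%, between 8 and 10, 2.44% and 4.64%, and at 10 or above, 1.35% and 2.50%. The classes were not tested against each other, since probes of the same gene are not independent. Calls of lower probes were too few for a comparison, with 3, 2, 1 and 1 Ensembl-named probes in the 4 ranges.

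**Figure D3:**
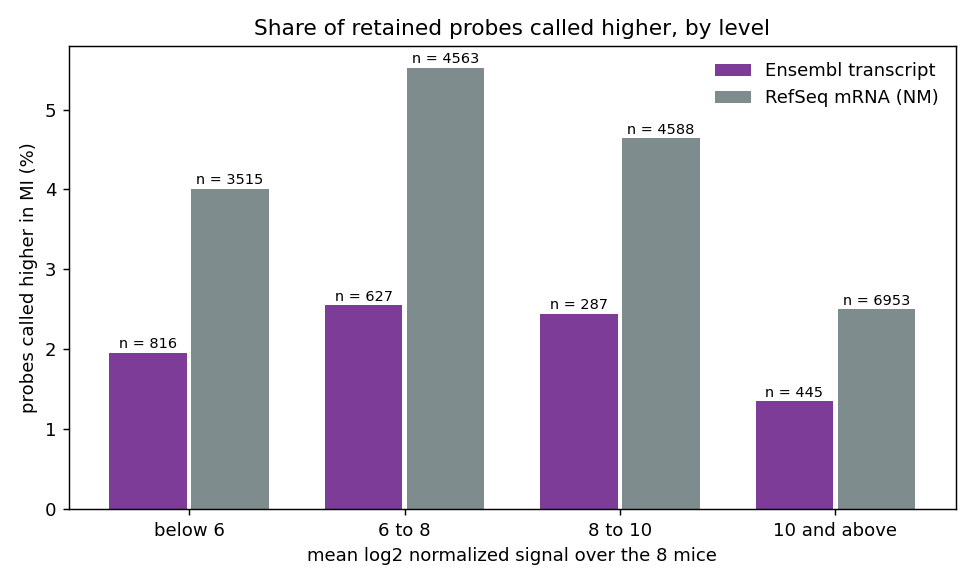
Share of retained probes called higher in MI (vertical axis, %) in 4 ranges of the mean log2 normalized signal (horizontal axis), for Ensembl-named probes (purple) and RefSeq messenger RNA probes (grey); the number of probes in each range stands over its bar. The Ensembl-named bar, 1.35% to 2.55%, is lower than the messenger RNA bar, 2.50% to 5.52%, in each range.

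Mirt2, which the study named for its response to MI and measured further, was at 9.02, 9.76, 9.83 and 9.98 in MI mice 1 to 4 and at 6.17, 5.63, 6.01 and 5.73 in sham mice 1 to 4 (log2 normalized signal). All MI mice were above all sham mice, with MI mouse 1 the lowest of its group. The means were 9.65 ± 0.42 and 5.89 ± 0.25 (SD, n = 4 each). Mirt2 rose 13.5-fold (log2 fold change 3.76, SE 0.23, limma adjusted p = 1.14e-11), the second largest rise among the 45 called probes. In processed signal, the geometric means were 836 and 43.8. The exact two-sided permutation test gave p = 0.0286, the smallest that 4 against 4 mice allow. The study picked Mirt2 for its rise on these same arrays. Its call, lack of overlap and p-values here are therefore not independent support. The study also reports a rise of Mirt2 by PCR in a separate group of mice, which is not part of these data. The rise was 3.49 among the mice of one slide row and 4.03 among those of the other, and 3.65 to 3.97 with any mouse left out. It was smaller with a larger additive constant, 1.97 with the spike-in fit made here and 2.73 with normexp background correction, and stayed called with both.

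The largest rise was that of ENSMUST00000077110, which was at 10.42, 11.21, 11.34 and 10.49 in the MI mice and at 7.14, 6.61, 7.13 and 6.72 in the sham mice. The groups lay more than 3 log2 units apart, and MI mice 2 and 3 were higher than mice 1 and 4. It rose 15.6-fold (log2 fold change 3.97, SE 0.24, limma adjusted p = 8.24e-12), and by 2.71 on the log2 scale with the spike-in fit. ENSMUST00000006570, the third largest rise, was at 12.06, 13.07, 13.08 and 13.06 in the MI mice and at 10.03, 9.47, 11.28 and 10.58 in the sham mice. MI mouse 1 was lower than the other MI mice, which differed by little, and the sham mice spread over a wider range without reaching it. It rose 5.58-fold (log2 fold change 2.48, SE 0.30, limma adjusted p = 1.45e-06). Both transcripts were chosen among called probes whose groups did not overlap, so these traits were part of their selection. The neutrophil markers given above were also higher in MI, and their part in these rises was not tested.

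Gm10791 was measured by 2 probes, both called. Its brighter probe was at 7.02, 6.53, 7.08 and 6.26 in the MI mice and at 5.92, 5.36, 4.84 and 5.47 in the sham mice. The other probe was at 6.80, 6.56, 6.85 and 6.06 in the MI mice and at 5.74, 5.14, 5.25 and 5.31 in the sham mice. With both probes, MI mouse 4 was the lowest of its group and sham mouse 1 the highest of its own, and the groups did not overlap. Gm10791 rose 2.51-fold by the brighter probe (log2 fold change 1.33, SE 0.24, limma adjusted p = 0.000514) and 2.31-fold by the other (1.21, SE 0.22, adjusted p = 0.000551). These signals are low, and a larger additive constant in the log transform shrank them: with the spike-in fit made here, the log2 fold changes were 0.34 and 0.30 and neither passed the test (limma adjusted p = 0.0916 and 0.104).

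The lncRNA 2310075C17Rik had the largest fall among the called probes. It was at 6.43, 5.16, 5.50 and 5.76 in the MI mice and at 7.03, 7.02, 7.53 and 7.12 in the sham mice. The sham mice lay close together, and MI mouse 1 was the nearest to them. It was 2.76-fold lower in MI (log2 fold change -1.46, SE 0.24, limma adjusted p = 0.000146). With the spike-in fit made here the difference was -0.45 and stayed below an adjusted p of 0.05 (limma, 0.0382) but not over 2-fold. Its start region, shown above, lies on chromosome 9 and that of Gm10791 on chromosome 16.

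Of the other 6 probes that fell, the next by size was that of ENSMUST00000020090, at 7.66, 7.39, 7.37 and 8.21 in the MI mice and at 8.90, 9.48, 8.59 and 8.80 in the sham mice. MI mouse 4 came nearest to the sham mice, and a lack of overlap was a condition for naming this transcript. It was 2.43-fold lower in MI (log2 fold change -1.28, SE 0.24, limma adjusted p = 0.000538). With the spike-in fit the difference was -0.79, under 2-fold. ENSMUST00000105109, named under the same condition, was at 4.57, 4.45, 3.39 and 4.75 in the MI mice and at 6.06, 5.46, 5.10 and 5.06 in the sham mice. It was well above background in 1 of the 4 MI mice and in all sham mice, so that most of its MI values lie at the noise floor. Its log2 fold change was -1.13 (SE 0.27, limma adjusted p = 0.00748). The call was lost without MI mouse 3 (-0.83) and without sham mouse 1 (-0.92), because the difference was then under 2-fold. Its size depended on how values at the floor were handled, from -0.15 with the spike-in fit and -0.67 in the authors' value table, neither of which passed the test, to -2.29 with quantile normalization. By the methods' t-test with Benjamini-Hochberg adjustment, the falls of these 3 named transcripts and the rises of Gm10791 and ENSMUST00000006570 did not pass the threshold.

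**Figure D4:**
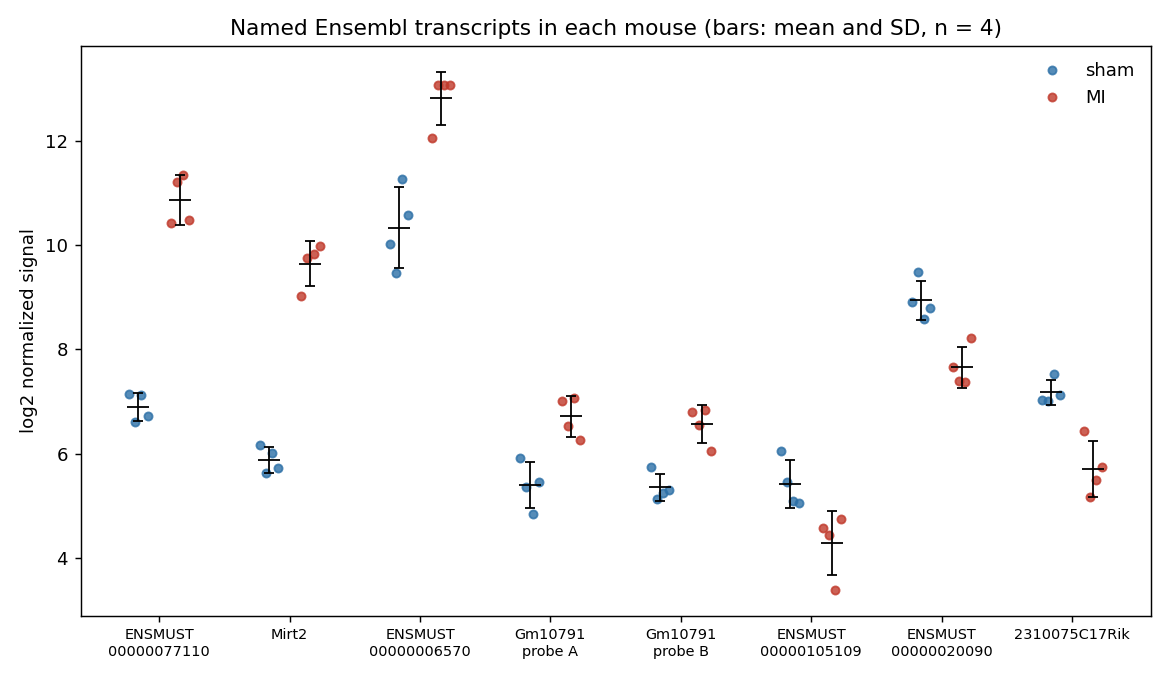
Log2 normalized signal (vertical axis) of 8 probes of 7 Ensembl-named transcripts (horizontal axis) in each sham mouse (blue) and MI mouse (red), with the mean and SD of 4 mice in black; probe A of Gm10791 is its brighter one. The groups do not overlap for any of the 8 probes, which was a condition for naming the transcripts given by identifier. The rises of ENSMUST00000077110 (3.97) and Mirt2 (3.76) are the largest.

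Some probes were well above background in only one group. In all 4 MI mice and no sham mouse, 6 Ensembl-named probes (0.276% of those retained) were detected, against 107 probes (0.314%) over the whole array. They passed the filter only through the MI group, so that their difference was part of their selection, and the 4 that were called (72 of the 107 on the whole array) are not a result about them. Since the sham values lie below the detection floor, only bounds can be given, which were at least 1.21-fold to at least 1.90-fold (median 1.58), taking for each sham array the lowest signal well above background or the probe's own signal if that was higher. The reverse pattern occurred for 1 probe, which was at least 1.20-fold higher in sham mice and was not called. These 7 probes were therefore close to the floor also in the group in which they were detected.

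Where a transcript had several probes, their log2 fold changes mostly lay close together. Of the 55 transcripts with more than 1 retained probe, the log2 fold changes of its probes differed by a median of 0.12, by less than 0.5 in 51 transcripts and by more than 1 in 1 transcript. They had the same sign in 44 of the 55. No matching figures were made for probes of different transcripts. Of all retained Ensembl-named probes, 69.0% were positive, with a median log2 fold change of 0.13. Small gaps and equal signs can therefore also occur between unrelated probes, and these counts are not a result about probes of the same transcript. In 4 transcripts a probe was called, and in each of these 4 a second probe was called as well, among them Gm10791. For ENSMUST00000098484, 1 of these probes was well above background on no sham array and the other on 1. For ENSMUST00000037976, 1 of the probes was well above background on 1 sham array. The sizes of these rises depend on sham values near the floor. Over the 55 transcripts, the brightest and the next brightest probe correlated at r = 0.739 in their log2 fold changes. This r describes probes hybridised on the same 8 arrays and is not one over independent samples. The transcript with the widest gap had log2 fold changes of -0.07 and -2.17, and the second probe was one of those that were bright on a single array.

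**Figure D5:**
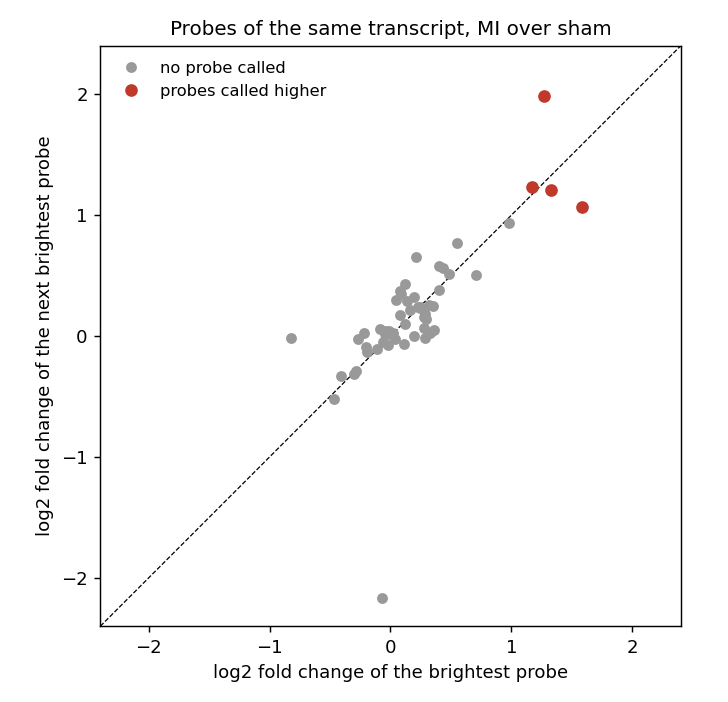
Log2 fold change of MI over sham for the next brightest probe (vertical axis) against the brightest probe (horizontal axis) of the 55 Ensembl-named transcripts with more than 1 retained probe; the dashed line marks equal values. The 4 transcripts with called probes (red) lie above 1 on both axes, and 1 transcript lies at -2.17 on the vertical axis.

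Large differences that came from a single array were not called. For 10 Ensembl-named probes, 3 of them retained, the signal on 1 array was more than 8-fold above that on the next brightest array, compared with 117 probes on the whole array. Each of the 10 probes has a single spot on an array, and none was saturated. The bright array was MI mouse 3 for 5 of the 10, sham mouse 3 for 3 and sham mouse 4 for 2. The most extreme retained one was at 18.11 in sham mouse 4 and between 5.23 and 6.23 in the other 7 mice. Its log2 fold change was -2.74 (SE 1.55, limma adjusted p = 0.346), which is larger in size than that of any probe called lower. Sham mouse 4 also held 38 of the 117 such probes of the whole array, and what made these spots bright was not tested.

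None of the nearest genes with a retained RefSeq probe, 2 on each side of the 3 named lncRNAs, was called. On GRCm38, the nearest of them to Mirt2 is Grina, at a distance of 16.9 kb, which codes for a membrane protein of the endoplasmic reticulum and Golgi. Grina was at 11.87, 11.43, 12.14 and 11.58 in the MI mice and at 11.43, 10.39, 10.97 and 10.75 in the sham mice. The groups overlapped through sham mouse 1, and the difference of 0.87 on the log2 scale (SE 0.23, limma adjusted p = 0.0194) was below 2-fold. The next genes on either side, Parp10 (0.39), Oplah (0.07) and Exosc4 (-0.14), did not pass the test. Gm10791 overlaps App, the gene of the amyloid precursor protein, whose log2 fold change was 0.01 (SE 0.21, limma adjusted p = 0.983). The nearest such genes to 2310075C17Rik were far away, Stac (-0.32) at 537 kb and Pdcd6ip (0.62) at 1424 kb, and did not pass the test either.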

How the data were processed

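Cardiac RNA of 4 MI and 4 sham mice was measured on 1-colour Agilent arrays, 1 array per mouse. Per the file headers, the deposited intensity of a spot is the processed signal from Feature Extraction 11.0.1.1, with the local background subtracted and no normalization between arrays. The authors' deposited log2 values were made from spots well above background with limma and vsn on spike-in probes, with 1 mean value per probe.

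The authors' log2 values equal log2 of a scale times the intensity plus a constant, with no misfit over 0.01 on any array. These scales and constants were applied here to all spots, below background too. Spots with outlier flags were left out and spots of a probe averaged. A spike-in fit made here gave constants of 166 to 257, above the median signal of the Ensembl-named probes, and was kept as an alternative. Leaving out controls and probes detected on fewer than 4 arrays kept 34038 probes.

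Groups were compared in limma 3.58.1 (R 4.3.3) without covariates, with Benjamini-Hochberg adjustment over all 34038 probes. A call needed a fold over 2 and an adjusted p below 0.05. Single probes were also compared with an exact permutation test. Python 3.11.15, numpy 2.4.6, scipy 1.17.1, pandas 2.3.3 and matplotlib 3.10.9 were used for the rest.

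The members and lists were chosen with earlier results of these data known. The named probes are those of the lncRNAs the study lists by Ensembl name and, in each direction, the 2 others with the largest fold among called probes whose groups do not overlap and that were detected on every array of the higher group. The study drew its list from differences on these same arrays. The rule allowed 12 in each direction, but no table used here pairs Ensembl names with genes, and the others are given in counts. For the same reason, gene families and RefSeq probes of the same genes could not be compared. Marker lists covered cardiomyocytes, smooth muscle, endothelial cells, fibroblasts, neutrophils, monocytes with macrophages, B cells and T cells, each summed over the brightest retained probe of a gene. Gene names, neighbours and start regions are those of RefSeq on GRCm38.

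The alternatives were a spike-in fit of the vsn model, a plain shift by spike-in signals, 75th percentile scaling, quantile normalization, quantile normalization after normexp correction (offset 50, median intensities), the authors' value table, no detection filter, detection on all 8 arrays, undetected spots set to missing, significance analysis of microarrays with 70 permutations, the methods' t-test, blocks for replicate number and slide row, and each mouse left out in turn.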

Additional observations from a re-analysis of the deposited data

Results flagged for a closer look

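Over 20 groups of 4 mice (the 8 named probes, the share of Ensembl-named probes detected and their median level, in each group), 2 values lay far from the rest of their group by Dixon's criterion, which marks about 1 group in 20 by chance. The share of Ensembl-named probes detected was 55.6% in sham mouse 1, against 48.2% in the nearest other sham mouse, a gap of 0.914 of the range of its group. ENSMUST00000006570 was at 12.06 in MI mouse 1 (log2 normalized signal), against 13.06 in the nearest other MI mouse, a gap of 0.986 of the range. Without MI mouse 1, its log2 fold change was 2.73 rather than 2.48, and it stayed called.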

How the results depend on the processing

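The number of arrays and signals close to background limit these results. Mirt2 stayed called under every alternative tried, with log2 fold changes of 1.97 to 4.09. None of the 146 values of the other 7 named probes under the alternatives changed direction, and 20 lost the call, under the spike-in fit, normexp or the methods' t-test, or for ENSMUST00000105109 also under the authors' value table, no filter, missing values below background and 2 left-out mice. Against 45 higher and 7 lower calls and 117 at any fold, the spike-in fit gave 10, 0 and 48, normexp 14, 2 and 296, and the methods' t-test with Benjamini-Hochberg adjustment 16, 0 and 32 (276 at unadjusted p below 0.05). A shift by the spike-ins alone gave 14 lower calls. Scaling to the 75th percentile gave 25 lower and 280 at any fold, quantile normalization 26 and 295, and no filter 3 and 45 over 4226 probes. Significance analysis of microarrays gave 185 at any fold. Leaving out each mouse gave 38 to 58 higher calls, 3 to 14 lower and 87 to 144 at any fold, and 3.65 to 3.97 for Mirt2. Within the slide rows, calls were 14 higher and 1 lower in one, 56 and 5 in the other, and 46 and 7 with the row as a block. The cause of these changes was not tested.

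Mice of both groups share replicate numbers. Deviations from the group means correlated at 0.238, 0.292, 0.143 and 0.0114 between mice of equal number, not over 0.1 in every pair, and 5 of the 8 mice correlated best with their own number. The numbers were therefore taken as shared numbers only, though the data leave a hint of pairing. With the replicate number as a block, 43 probes were called higher, 6 lower and 243 at any fold, and Mirt2 stayed at 3.76. The comparison of Ensembl-named with RefSeq probes of the same gene was not run.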
